A study of Mus musculus with 48 samples.

Results

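The type I interferon response module is a set of 36 protein-coding mouse genes that are known targets of interferon-alpha and interferon-beta, taken by name from the 55487 genes of the count tables. Grouped by role, it holds 3 genes of ISG15 conjugation, 5 sensors of foreign nucleic acid, 5 oligoadenylate synthetases and their relatives, 4 IFIT proteins, 9 antiviral effectors, 3 genes of an ADP-ribosylation complex, the signal transducer Stat2 and 6 other interferon-induced proteins. The RNA came from wild type mice of a study of cisplatin, a DNA-crosslinking drug, in tumor-bearing animals. Myeloid cells were sorted from digested nodes, either the tumor-draining lymph node (TDLN) or a lymph node given without that label (LN), after cisplatin (CIS) or phosphate-buffered saline (PBS). The 4 sorted cell types were medullary sinus macrophages (MSM), subcapsular sinus macrophages (SSM), migratory dendritic cells (mDC) and resident dendritic cells (rDC). Each combination of cell type, node and treatment has 3 libraries, 48 in all in 16 groups. The tumor, the dose, the time after treatment, the node site, the sorting markers and whether the animals that gave the LN bore a tumor are not given in the labels.

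Type I interferons bind the IFNAR1 and IFNAR2 receptor pair, which signals through the kinases JAK1 and TYK2 to a complex with STAT2 and IRF9 that binds interferon-stimulated response elements in promoters. The genes switched on in this way sense viral RNA, block its translation, degrade it and hold back virus release, and some of them, such as Usp18, feed back to dampen the receptor. In lymph nodes, sinus macrophages take up lymph-borne particles and plasmacytoid dendritic cells are a well known source of interferon-alpha.

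Levels are given in CPM, the counts of a gene relative to the total of its library. TMM scaling was over the 12 libraries that share a cell type unless said otherwise, so levels of different cell types are not on 1 scale. Values of markers and of genes around the module were scaled over the 24 libraries of both macrophage types or both dendritic cell types. Differences are log2 fold changes with their standard error (SE), and adjusted p are Benjamini-Hochberg values over all genes tested, from edgeR's quasi-likelihood test, with a limit of 0.05 for a call. Bulk values cannot tell fewer expressing cells from less RNA per cell.

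The 24 macrophage libraries held 6456456 to 10434248 counts and 18 dendritic cell libraries 2002713 to 3842097, while the 6 libraries of mDC TDLN PBS and rDC LN PBS held 10733509 to 15481059. In those groups depth and condition cannot be told apart. In all, 4 macrophage libraries stood with the other cell label of the same node and treatment. These crossed libraries are MSM LN PBS replicate 2, SSM LN PBS replicate 2, MSM TDLN CIS replicate 1 and SSM TDLN CIS replicate 3. Their distance to libraries of the other label was 1.69 to 2.75 times counting noise, against 35.7 to 50.9 times to their own group, while other macrophage libraries of 1 group lay 1.55 to 3.44 times apart. They were kept under their labels, and each count of called members is given with and without them. MSM LN CIS went against its label: the 13 sinus macrophage markers summed to 1771 to 1858 CPM there against 8118 to 25687 CPM in the other macrophage groups. The macrophage genes Adgre1 and Siglec1 stood at 3.65 and 0.0955 CPM in it, and migratory dendritic cell markers summed to 4789 to 5036 CPM, against 717 to 2323 CPM in the other macrophage groups. MSM TDLN PBS held neutrophil markers at 8106 to 8409 CPM and Marco at 0.925 CPM. SSM TDLN PBS also had low means of some sinus macrophage genes, with Siglec1 at 11.7 CPM and Marco at 19.7 CPM. In SSM LN PBS these stood at 245 and 893 CPM. Vsig4, another sinus macrophage marker, was at 0 in every macrophage group. Group means of the migration receptor Ccr7 were 11251 to 14442 CPM in mDC and 675 to 1127 CPM in rDC. Resident dendritic cell markers summed to 608.5 to 951.5 CPM in rDC and 100.4 to 283.1 CPM in mDC. The rDC libraries also held plasmacytoid dendritic cell markers at 2180 to 4360 CPM and B cell markers at 1706 to 3662 CPM. Markers of dendritic cells in general were lower in rDC, at 3272 to 5180 CPM, than in mDC, at 8118 to 11842 CPM.

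Many members sit side by side. Ifit2, Ifit3, Ifit3b and Ifit1 follow each other on chromosome 19 between 34550694 and 34650009 (GRCm38), and the 5 oligoadenylate synthetase genes lie on chromosome 5 between 114896936 and 120907521. Chromosome 16 holds 6 members, among them Parp14, Dtx3l and Parp9, and Mx1 and Mx2. Promoters from 250 bases before to 50 bases after the start were found in RefSeq (GRCm38.p6) for 26 members. The core of the interferon-stimulated response element, searched as GAAA, 2 bases of any kind and GAAA on either strand with overlapping matches counted, was present in 15 of them (57.7%), against 3.99% of 27025 genes. The promoters of 5 members that hold the core are shown, 5′ to 3′ on the gene's strand, with matches of that core in capitals. They belong to Isg15 (chr4:156200819-156200988, minus strand), Ifit1 (chr19:34640719-34640888, plus), Ifit3 (chr19:34583359-34583528, plus), Bst2 (chr8:71537473-71537642, minus) and Rsad2 (chr12:26456453-26456622, minus).
Isg15: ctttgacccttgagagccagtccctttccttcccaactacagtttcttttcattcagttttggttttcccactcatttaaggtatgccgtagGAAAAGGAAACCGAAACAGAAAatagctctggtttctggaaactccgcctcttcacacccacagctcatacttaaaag
Ifit1: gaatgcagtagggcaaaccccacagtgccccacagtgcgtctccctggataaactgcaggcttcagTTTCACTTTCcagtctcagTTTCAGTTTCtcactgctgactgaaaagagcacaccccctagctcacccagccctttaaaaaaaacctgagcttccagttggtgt
Ifit3: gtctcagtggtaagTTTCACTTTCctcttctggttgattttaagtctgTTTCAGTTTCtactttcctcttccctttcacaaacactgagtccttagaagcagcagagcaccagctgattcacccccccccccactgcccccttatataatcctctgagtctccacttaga
Bst2: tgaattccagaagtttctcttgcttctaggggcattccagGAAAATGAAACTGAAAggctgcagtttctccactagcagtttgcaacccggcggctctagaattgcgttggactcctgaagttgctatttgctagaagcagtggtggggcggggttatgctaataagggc
Rsad2: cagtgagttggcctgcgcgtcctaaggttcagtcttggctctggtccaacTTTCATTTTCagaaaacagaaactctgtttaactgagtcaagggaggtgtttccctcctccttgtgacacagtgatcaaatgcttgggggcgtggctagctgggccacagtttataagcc
The Isg15 promoter holds 3 overlapping matches, from 78 to 57 bases before the start, Bst2 holds 2 overlapping ones, and Ifit1 and Ifit3 each hold 2 separate ones. Usp18, Dhx58, Zbp1, Oas2, Mx1, Mx2, Parp9, Parp14, Ifi27l2a and Rtp4 had no promoter entry. Ifit2 had an entry but no match of the core.

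Among macrophages the module was highest in SSM of the TDLN after PBS and in SSM of the LN after cisplatin. The mean of log2(CPM + 1) over the 36 members was 6.60 to 6.63 in SSM TDLN PBS and 6.50 to 6.52 in SSM LN CIS. SSM LN PBS stood at 5.45 and 5.47 and SSM TDLN CIS at 4.97 and 4.99, with their crossed libraries at 6.02 and 4.48. In MSM the mean was 6.05 and 6.06 in LN PBS (crossed library 5.51), 5.24 to 5.25 in LN CIS, 4.85 to 4.88 in TDLN PBS, and 4.45 and 4.53 in TDLN CIS (crossed library 5.02). The crossed libraries lay nearer to the other cell label than to their own. SSM LN CIS had the highest group mean for 19 members and SSM TDLN PBS for 15. The module mean in rDC was 5.23 to 5.29 in both LN groups, 4.82 to 4.96 in TDLN PBS and 5.26 to 5.40 in TDLN CIS. In mDC it was lower, at 4.12 to 4.15 in TDLN PBS and 4.24 to 4.45 in the other 3 groups.

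**Figure D1:**
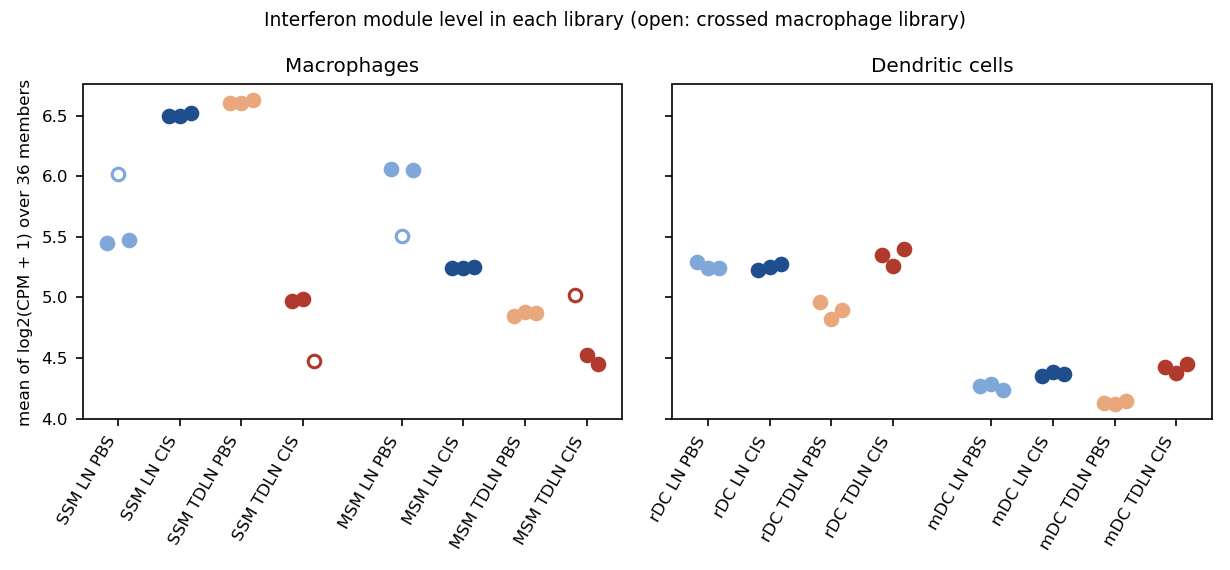
Mean of log2(CPM + 1) over the 36 members in each of the 48 libraries, by cell type, node and treatment, with open symbols for the 4 crossed libraries. The 3 SSM TDLN PBS libraries sit at 6.60 to 6.63 and the mDC TDLN PBS libraries at 4.12 to 4.15.

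By TPM, the share of transcripts on a fixed total, which allows for gene length, the 3 leading members were the same in both macrophage types, and rDC shared Bst2 and Ifi27l2a with them. In SSM, with values that were deposited without decimals, they were Ifi27l2a, a small mitochondrial protein, at a mean of 1004 over 12 libraries, Isg15, the ubiquitin-like protein that is conjugated to other proteins, at 230, and Bst2, the tetherin that holds virus at the cell surface, at 186.5. In MSM the same 3 led, at 479, 178 and 152. In rDC Bst2 led at 621 and Ifi27l2a followed at 327. In mDC Usp18, the protease that removes ISG15, led at 228, followed by Mx1, a dynamin-like GTPase, at 139.9. Mx2 and Oas2 were among the 4 lowest members in every cell type.

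Individual members ranked the groups differently, as CPM scaled over the 24 libraries of both macrophage types shows. Usp18 averaged 213.9 CPM in SSM TDLN PBS, 109 in SSM LN CIS and 64.6 in MSM LN CIS. The first of these groups overlapped no other, nor did the next, while MSM LN CIS overlapped MSM TDLN PBS, and the lowest mean was 35.7. Oas2, which makes the oligoadenylates that activate RNase L, averaged 95.6 CPM in SSM LN CIS, 42.2 in MSM LN CIS and 3.20 in MSM TDLN PBS, so its highest groups were both LN groups given cisplatin. Zbp1, a sensor of Z-form nucleic acid, and Stat2 both had SSM LN CIS first and SSM TDLN PBS next, with means of 199 and 146.9 CPM for Zbp1 and 150.9 and 130.7 CPM for Stat2, and neither pair overlapped. Slfn5, a schlafen family protein, averaged 196 CPM in SSM LN CIS and 26.1 in MSM LN CIS. Parp14, a mono-ADP-ribosyltransferase, averaged 75.7 CPM in SSM LN CIS and 0.164 in MSM TDLN PBS. For Isg15 every neighbour in the order of the 8 groups overlapped.

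**Figure D2:**
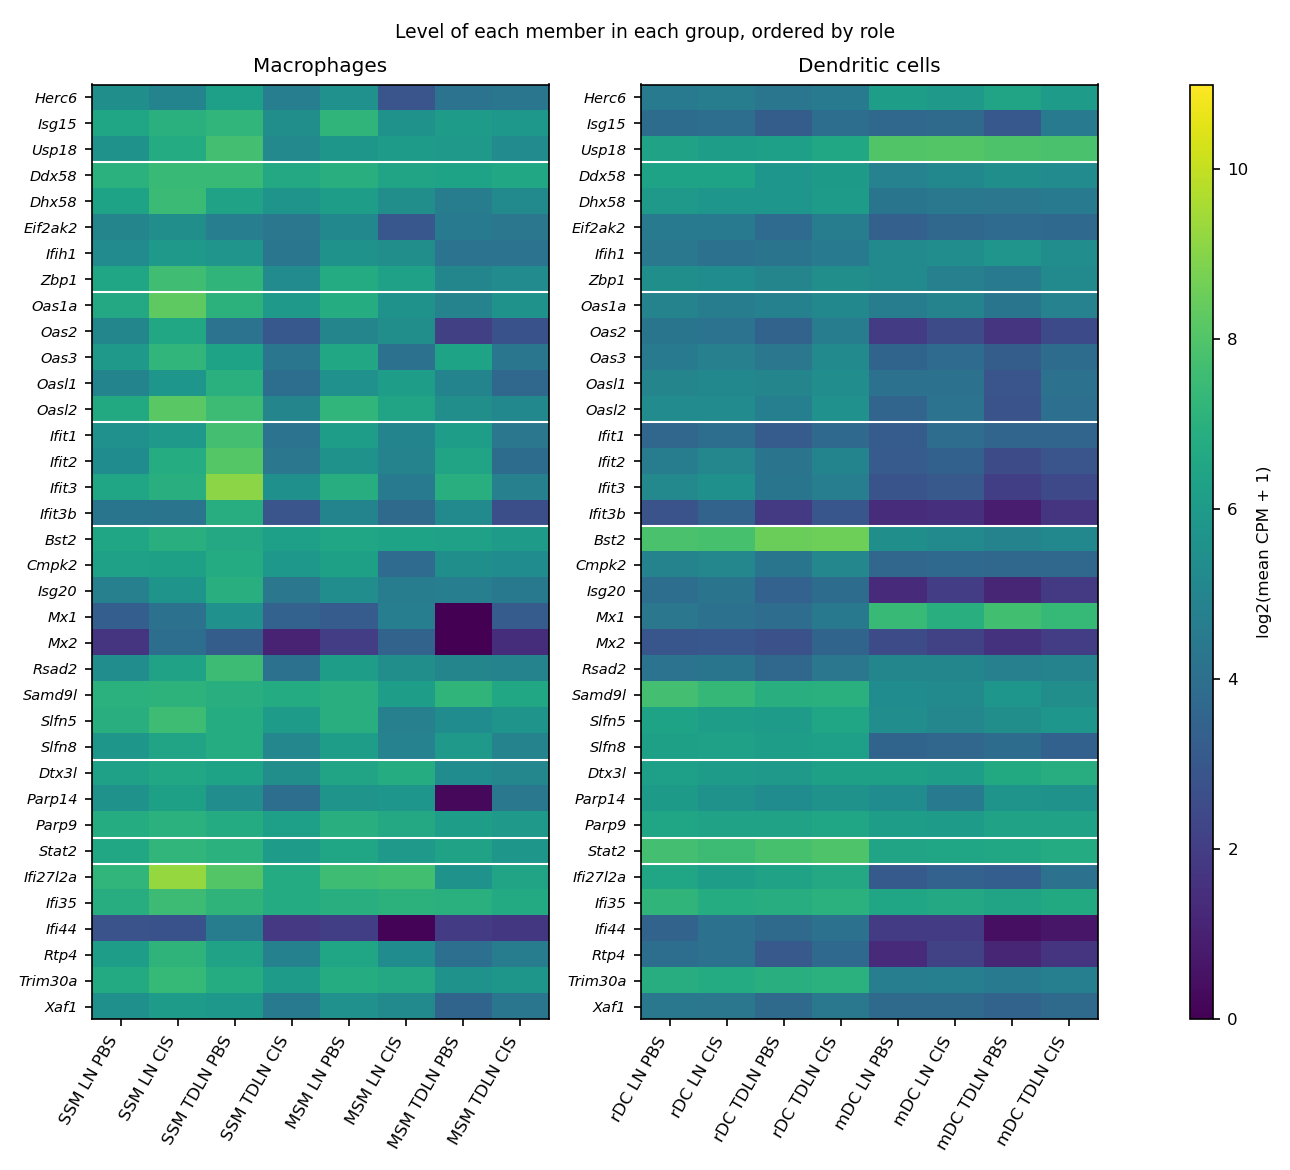
Level of each of the 36 members in the 16 groups, in colour as log2 of the mean CPM of 3 libraries + 1, with members ordered by role. The SSM LN CIS and SSM TDLN PBS columns are the highest of the macrophage columns for 19 and 15 members.

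Cisplatin and the module in subcapsular sinus macrophages of the TDLN were compared first. All 36 members were lower after cisplatin than after PBS by sign, and 28 passed the test as lower and 0 as higher, where 9.95% of all genes tested were called lower and 13% higher. The median log2 fold change was -1.51, against 0.03 over all genes. Every IFIT protein (4 of 4, median -3.71) and every oligoadenylate synthetase (5 of 5, median -2.12) fell, with 6 of 9 antiviral effectors, 5 of 6 other proteins, 3 of 5 sensors, 2 of 3 genes of ISG15 conjugation, 2 of 3 of the ADP-ribosylation complex and Stat2. Without the crossed libraries 35 members were called lower and 0 higher, where 36.5% of all genes were called lower.

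Ifit1, which binds viral RNA that lacks the host cap mark, stood at 209, 200.2 and 220 CPM in the SSM TDLN PBS libraries and at 14.5, 14.5 and 22.0 CPM after cisplatin, the last value being the crossed library. The groups were far apart and the crossed library lay with the others (log2 fold change -3.62 ± 0.57 SE, adjusted p = 0.00258). Ifit2 stood at 298, 263 and 261 CPM after PBS and at 22.7, 27.8 and 8.55 CPM after cisplatin (-3.80 ± 0.37, adjusted p = 0.000303). Ifit3 was at 501, 559 and 549.6 CPM after PBS and at 64.5, 62.9 and 6.47 CPM after cisplatin, with the crossed library lowest (-3.59 ± 0.68, adjusted p = 0.00598). Its near copy Ifit3b fell by 4.16 ± 0.77 (adjusted p = 0.00511), but 61.8% of the 31-base words of Ifit3 and 55.2% of those of Ifit3b occur in other genes too, so reads may be split between them. Rsad2, the viperin that makes a chain-terminating nucleotide, was at 189, 183 and 179 CPM after PBS and at 9.32, 8.07 and, in the crossed library, 33.4 CPM after cisplatin (-3.44 ± 0.78, adjusted p = 0.0125). Without the crossed libraries the 5 changes lay between -4.39 for Rsad2 and -3.06 for Ifit3.

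Usp18 fell from 202.5, 225 and 207.5 CPM to 31.6, 31.5 and 42.6 CPM, with no overlap (-2.59 ± 0.14, adjusted p = 2.49e-05). Isg15 did not pass the test. It was at 143, 153 and 159 CPM after PBS and at 27.6, 27.8 and, in the crossed library, 73.0 CPM after cisplatin (-1.83 ± 0.64, adjusted p = 0.0622). The groups did not overlap for Isg15 either, and the crossed library lay between them. Members that moved least were Samd9l, an antiviral restriction factor (-0.17 ± 0.22, adjusted p = 0.600), and Eif2ak2, the RNA-activated kinase PKR (-0.32 ± 0.14, adjusted p = 0.126). Bst2 differed by -0.43 ± 0.14 (adjusted p = 0.0486). Usp18, Isg15, Samd9l, Eif2ak2 and Bst2 were picked here after their values were seen. Marker sums moved with this comparison. Mast cell and basophil markers were 1885 to 3415 CPM after cisplatin (crossed library highest) and 47.5 to 69.3 CPM after PBS. B cell markers were 397 to 4346 against 902 to 932 CPM. Sinus macrophage markers were 8180 to 16034 against 13033 to 13520 CPM, and the crossed library was the lowest value in both. Most of the sinus sum was Lyz2, at 8400 against 11050 CPM. Siglec1 (124 against 11.7 CPM), Marco (643 against 19.7 CPM) and Timd4 (917 against 144 CPM) were lower after PBS. Adgre1 (277 against 286 CPM) and Mertk (18.3 against 20.5 CPM) were not. Their part in the result was not tested.

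In SSM of the LN the module went the other way. After cisplatin 11 members rose and 0 fell, where 5.85% of all genes were called higher and 7.42% lower, and 32 of 36 were positive in sign (median 0.65, all genes -0.04). The call depends on single libraries. The DESeq2 test called 18. Leaving out SSM LN PBS replicate 3 gave 5 called members, leaving out the crossed SSM LN PBS replicate 2 gave 21, and without all crossed libraries 32 were called higher and 0 lower, where 30.1% of all genes were called higher. Ifi27l2a was at 109, 235 and 110.2 CPM after PBS, the middle value from the crossed library, and at 609, 615 and 624 CPM after cisplatin (2.02 ± 0.35, adjusted p = 0.00649). Oas2 was at 35.99, 27.9 and 33.6 CPM after PBS and at 90.05, 96.9 and 94.4 CPM after cisplatin (1.53 ± 0.17, adjusted p = 0.000978). In both genes the groups were separate, with the crossed library on the side of its label. Oas1a rose from 101.4, 102.9 and 93.3 CPM to 298, 321 and 305 CPM (1.63 ± 0.24, adjusted p = 0.00297), though 68.8% of its 31-base words are shared, most of them with Oas1g. Oasl2, an OAS-like protein, rose by 1.49 ± 0.40 (adjusted p = 0.0348) and Ifit2 by 1.47 ± 0.34 (adjusted p = 0.0201). Both were lost on leaving out any library of this comparison but SSM LN PBS replicate 2, with adjusted p of 0.0931 to 0.101 for Oasl2 and 0.0612 to 0.0751 for Ifit2. Marker sums moved with this comparison too. From SSM LN PBS to SSM LN CIS, B cell markers were 250 to 3477 and 256 to 270.5 CPM (crossed library lowest), mast cell and basophil markers 143 to 1063 and 41.1 to 45.8 CPM, and plasmacytoid dendritic cell markers 90.2 to 927 and 192 to 206 CPM. Monocyte markers were 818 to 997 and 2252 to 2423 CPM and sinus macrophage markers 13379 to 17944 and 25203 to 25687 CPM. The crossed library was also lowest in mast cell and basophil, plasmacytoid dendritic cell and sinus macrophage markers, and highest in monocyte markers. Their part was not tested.

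**Figure D3:**
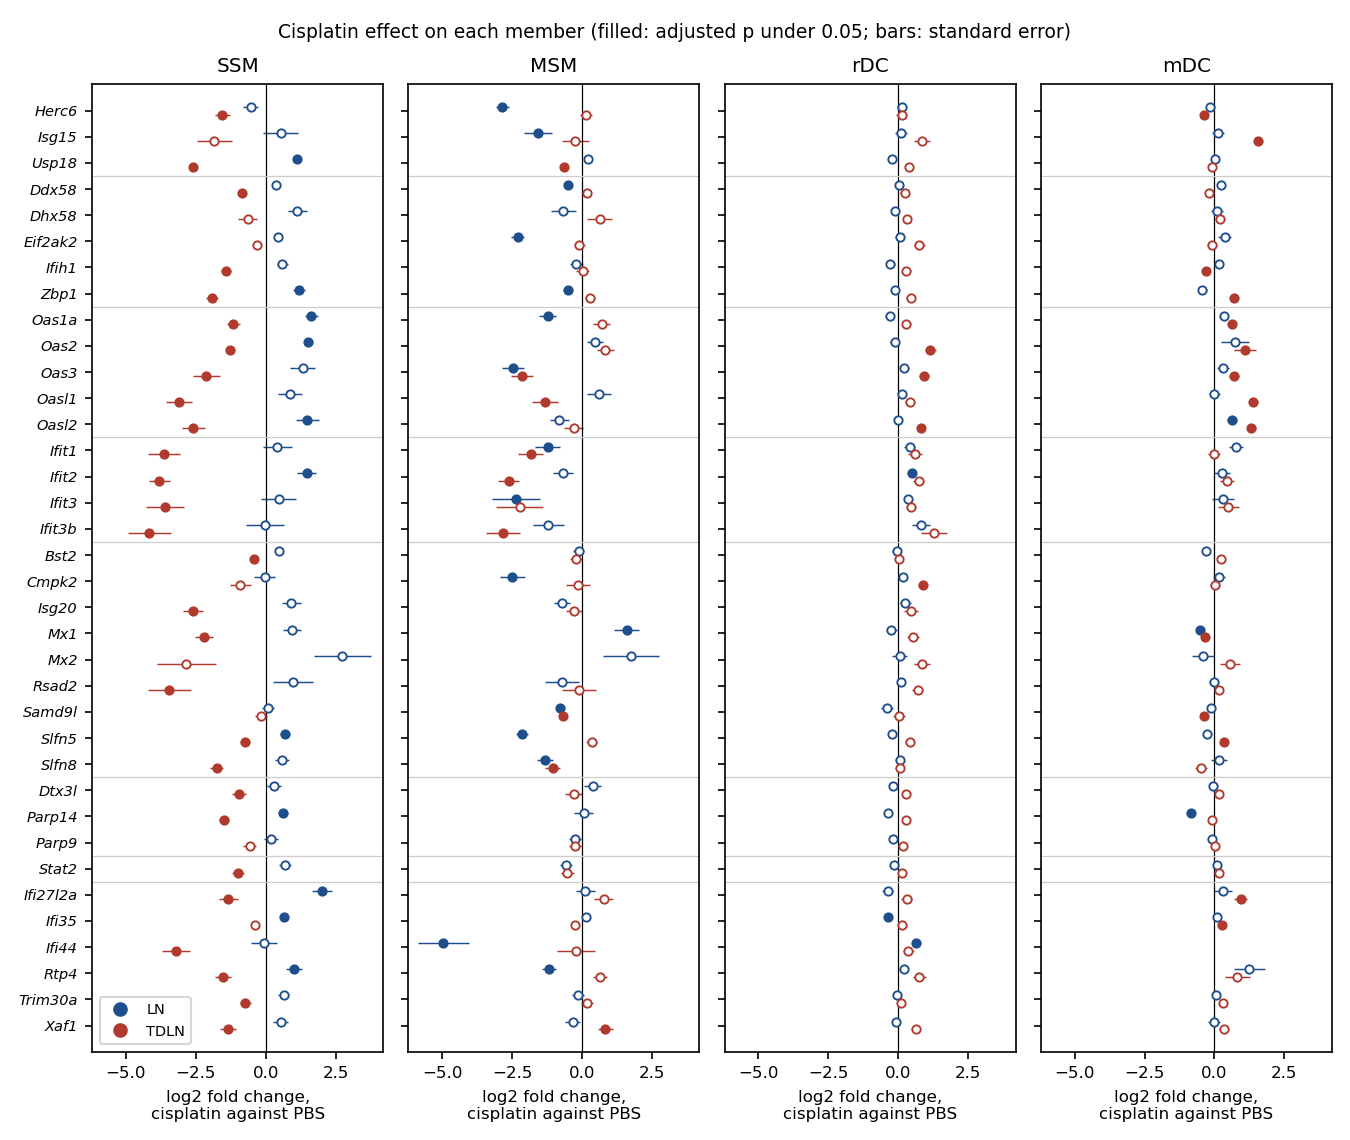
Log2 fold change of each member with cisplatin against PBS, in the TDLN and in the LN, for the 4 cell types, from the edgeR fits, with bars for the SE and filled points for an adjusted p under 0.05. Mx1, Mx2 and Parp14 in MSM of the TDLN were fitted against groups at or near 0, lie beyond the axis and are not drawn, and 3 members were not tested in mDC; in SSM all 36 members lie below 0 in the TDLN and 32 lie above it in the LN.

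The difference of the cisplatin effect between the 2 nodes was tested as an interaction. In SSM it was towards a lower effect in the TDLN for 31 members and towards a higher one for 0, where 8.21% of all genes were called lower and 13.4% higher (median difference -2.45, all genes 0.12). The number was 35 without the crossed libraries, where 32.2% of all genes were called lower. Each of the IFIT proteins, oligoadenylate synthetases, sensors and other proteins was called. Ifit2 (-5.26 ± 0.50, adjusted p = 0.000276), Rsad2 (-4.41 ± 1.05, adjusted p = 0.0160), Ifit3b (-4.14 ± 1.00, adjusted p = 0.0166) and Oasl2 (-4.07 ± 0.58, adjusted p = 0.00141) had large differences. The lowest adjusted p was that of Usp18 (-3.72 ± 0.20, adjusted p = 1.08e-05), a gene picked after its value was seen. Mx2 differed by -5.56 ± 1.46 (adjusted p = 0.0235), but it was lost on leaving out any of 7 libraries, the 3 SSM LN CIS libraries, SSM LN PBS replicates 1 and 3 and SSM TDLN PBS replicates 2 and 3 (adjusted p 0.0511 to 0.0578). In 10 members the cisplatin effect was called in both nodes, lower in the TDLN and higher in the LN, and 7 members were called in neither. The matching shares of all genes are not given, so these 2 counts were not set against all genes. The marker differences between the SSM groups given above move with this interaction, and their part was not tested.

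The starting levels of the nodes differed as well. After PBS, 11 members were higher and 1 lower in SSM of the TDLN than of the LN, where 7.63% of all genes were called higher and 12% lower (median 0.47). All 4 IFIT proteins were among the higher ones (median 2.65). Ifit2 was higher by 2.78 ± 0.36 (adjusted p = 0.00107) and Mx1 by 2.40 ± 0.33 (adjusted p = 0.00143). Ifit3 (2.63 ± 0.65), Ifit3b (2.66 ± 0.71) and Ifit1 (2.18 ± 0.54) also passed, but each lost the call on leaving out any of the 3 TDLN libraries or LN PBS replicate 3, and Ifit3 and Ifit3b also LN PBS replicate 1, with adjusted p of 0.0509 to 0.088. Oas2 was the exception, lower in the TDLN at 15.1, 17.3 and 18.7 CPM (-0.93 ± 0.17, adjusted p = 0.00572). The count was 6 without SSM TDLN PBS replicate 1, 20 without SSM LN PBS replicate 2, and 26 higher and 3 lower without the crossed libraries, where 34% of all genes were called higher and 33.8% lower. From SSM LN PBS to SSM TDLN PBS, B cell markers were 250 to 3477 and 902 to 932 CPM, mast cell and basophil markers 143 to 1063 and 47.5 to 69.3 CPM, and T cell markers 687 to 1681 and 2043 to 2179 CPM, the crossed library lying nearer to the TDLN in T cell markers. That library was lowest in B cell markers and in mast cell and basophil markers. The sinus macrophage gene Siglec1 averaged 245 and 11.7 CPM and Marco 893 and 19.7 CPM, while Lyz2 averaged 9867 and 11050 CPM. Their part was not tested.

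After cisplatin the order of the nodes was reversed, with 0 members higher and 27 lower in the TDLN, where 8.79% of all genes were called higher and 8.65% lower (median -1.53). With the crossed libraries left out, 0 were higher and 33 lower, where 30.1% and 31.8% of all genes were called. Oas2 was at 8.40, 7.58 and 5.37 CPM in the TDLN, below the 90.05 to 96.9 CPM of the LN (-3.72 ± 0.19, adjusted p = 5.97e-06). Oasl2 (-3.21 ± 0.43), Oas3 (-3.01 ± 0.48) and Ifi27l2a (-2.52 ± 0.36) were lower too, with adjusted p of 0.00116, 0.00284 and 0.00159. Mx2 was lower by 3.67 on the log2 scale with an SE of 1.07 (adjusted p = 0.0402), a call lost on leaving out any LN CIS library or TDLN CIS replicate 1 or 2 (0.0686 to 0.106). From SSM LN CIS to SSM TDLN CIS, mast cell and basophil markers were 41.1 to 45.8 and 1885 to 3415 CPM. Sinus macrophage markers were 25203 to 25687 and 8180 to 16034 CPM. The crossed library was highest in mast cell and basophil markers and lowest in sinus macrophage markers. Their part was not tested.

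**Figure D4:**
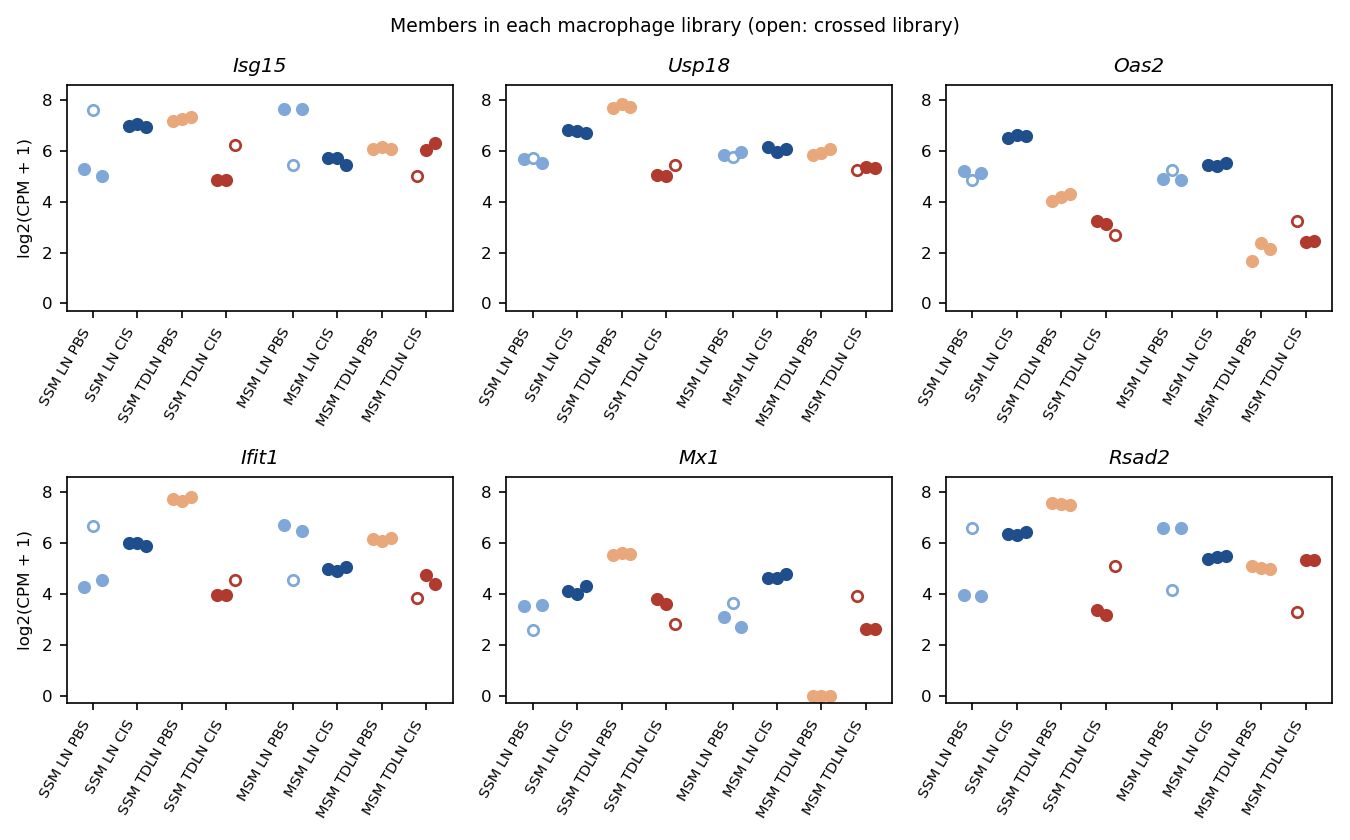
Level of Isg15, Usp18, Oas2, Ifit1, Mx1 and Rsad2 in each of the 24 macrophage libraries as log2(CPM + 1), 1 point per library, with open symbols for the 4 crossed libraries. Ifit1 sits at 200.2 to 220 CPM in SSM TDLN PBS and at 14.5 to 22.0 CPM in SSM TDLN CIS.

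In medullary sinus macrophages of the TDLN, cisplatin went with 4 members higher and 8 lower, where 25.6% of all genes were called higher and 11.5% lower (median -0.18, all genes 0.19). The lower ones included 3 of 4 IFIT proteins. Ifit2 stood at 82.8, 87.7 and 84.0 CPM after PBS and at 23.3, 9.48 and 8.53 CPM after cisplatin, the first of these being the crossed library (-2.62 ± 0.38, adjusted p = 0.000598). Ifit1 stood at 70.4, 66.6 and 72.2 CPM and at 13.2, 25.8 and 19.98 CPM (-1.83 ± 0.45, adjusted p = 0.0105). Ifit3b fell by 2.82 ± 0.60 (adjusted p = 0.00479) and Oas3 by 2.13 ± 0.39 (adjusted p = 0.00223). Oasl1, an OAS-like protein, fell by 1.32 ± 0.45 (adjusted p = 0.0431), a call that was lost without any PBS library or without CIS replicate 2 or 3 (0.0769 to 0.132).

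Of the 4 higher members 3 had few or no counts after PBS. Mx1 had no count in any of the 3 MSM TDLN PBS libraries and stood at 14.1, 5.16 and 5.22 CPM after cisplatin, at least 21.5-fold higher when 3 counts per library are taken as the floor. Parp14 was at 0.358, 0 and 0.135 CPM after PBS, while the cisplatin libraries held 11.1, 29.3 and 20.2 CPM (6.79 ± 0.56, adjusted p = 1.85e-05). Mx2 also had no count after PBS, and its bound is 4.57-fold. Xaf1, a partner of the apoptosis inhibitor XIAP, was higher by 0.84 ± 0.27 (adjusted p = 0.0312), a call lost without any PBS library or without the crossed CIS replicate 1 (0.061 to 0.13). Without the crossed libraries 7 members were called higher and 17 lower, where 41.6% and 27.4% of all genes were. Leaving out 1 library gave 9 to 18 called members, the most without MSM TDLN CIS replicate 1. Marker sums moved with this comparison. From MSM TDLN PBS to MSM TDLN CIS, mast cell and basophil markers were 50.2 to 59.8 and 1883 to 3383 CPM, B cell markers 37.5 to 43.6 and 362.5 to 4491 CPM, and dendritic cell markers 426 to 468 and 1346.5 to 3102 CPM. Neutrophil markers were 8106 to 8409 and 688 to 5422 CPM and sinus macrophage markers 24064 to 24451 and 8118 to 16661 CPM. The crossed library set the ends at 1883, 4491, 3102, 688 and 16661 CPM. Their part was not tested.

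In MSM of the LN, cisplatin went with 1 member higher and 15 lower, where 16.6% of all genes were called higher and 26.8% lower (median -0.68, all genes -0.15). Herc6, the main ligase for ISG15 in mice, was at 48.2, 32.9 and 58.1 CPM after PBS and at 6.58, 7.10 and 5.74 CPM after cisplatin (-2.84 ± 0.24, adjusted p = 1.76e-05). Eif2ak2 was at 37.1, 29.9 and 36.4 CPM and at 5.99, 7.22 and 7.74 CPM (-2.30 ± 0.22, adjusted p = 3.28e-05). Cmpk2, a mitochondrial nucleotide kinase encoded next to Rsad2, fell by 2.49 ± 0.45 (adjusted p = 0.00179) and Oas3 by 2.46 ± 0.40 (adjusted p = 0.000941). Mx1 rose by 1.60 ± 0.45 (adjusted p = 0.0217) and Ifit3 fell by 2.36 ± 0.85 (adjusted p = 0.0445), and both calls were lost without any library of the comparison but the crossed MSM LN PBS replicate 2 (0.0572 to 0.0733 for Mx1, 0.101 to 0.118 for Ifit3). Leaving out 1 library gave 10 to 19 called members, the fewest without MSM LN CIS replicate 1 or 2 or MSM LN PBS replicate 1. The counts were 6 higher and 25 lower without the crossed libraries, where 33.4% and 40.7% of all genes were called. The MSM LN CIS group is the one with sinus macrophage markers at 1771 to 1858 CPM. MSM LN PBS held 13446 to 18600 CPM (crossed library highest), and the part of that difference in these values was not tested.

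Between nodes after PBS, 0 members were higher and 19 lower in MSM of the TDLN, where 11.6% of all genes were called higher and 26.6% lower (median -0.93). With the crossed libraries left out, 1 was higher and 28 lower, where 29% and 40.7% of all genes were called. All 5 sensors and all 3 genes of the ADP-ribosylation complex were lower, and none of the 4 IFIT proteins was called. Parp14 was at 54.5, 47.95 and 50.9 CPM in the LN (-8.13 ± 0.57 against the TDLN values above, adjusted p = 7.02e-06). Mx1 was at least 21.5-fold lower in the TDLN. Oas2 (-3.26 ± 0.32, adjusted p = 5.15e-05), Rtp4, a receptor-transporting protein (-2.52 ± 0.26, adjusted p = 6.55e-05), and Xaf1 (-2.12 ± 0.27, adjusted p = 0.000256) were lower as well. From MSM LN PBS to MSM TDLN PBS, neutrophil markers were 204.9 to 4549 and 8106 to 8409 CPM. B cell markers were 245 to 3588 and 37.5 to 43.6 CPM, and sinus macrophage markers 13446 to 18600 and 24064 to 24451 CPM. The crossed library set the ends at 204.9, 3588 and 18600 CPM. Their part was not tested.

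After cisplatin 5 members were higher and 15 lower in MSM of the TDLN than of the LN, where 26.7% of all genes were called higher and 16.6% lower (median -0.59). Leaving out the crossed libraries gave 7 higher and 25 lower, where 41.6% and 32.8% of all genes were called. Herc6 (1.53 ± 0.23) and Slfn5 (0.95 ± 0.20) were higher, with adjusted p of 0.000605 and 0.00425, and Eif2ak2 averaged 19.8 CPM in the TDLN and 6.98 CPM in the LN (adjusted p = 0.000397). Cmpk2 was higher by 1.55 ± 0.44 (adjusted p = 0.0171), a call lost without MSM LN CIS replicate 1 or 2 (0.0584 to 0.0692). Oas2 (-2.90 ± 0.31), Oasl1 (-2.55 ± 0.47), Dtx3l (-1.75 ± 0.31), the ubiquitin ligase that works with PARP9, and Parp14 (-1.40 ± 0.36) were lower, with adjusted p of 7.09e-05, 0.00189, 0.00139 and 0.0106. Mx1 was lower by 1.59 on the log2 scale with an SE of 0.45 (adjusted p = 0.0217), which was lost without any LN CIS library or TDLN CIS replicate 2 or 3 (0.0578 to 0.0744). MSM LN CIS, which went against its label, held sinus macrophage markers at 1771 to 1858 CPM, against 8118 to 16661 CPM in MSM TDLN CIS (crossed library highest). B cell markers were 4219 to 4338 CPM in MSM LN CIS. In MSM TDLN CIS they were 362.5 and 382.5 CPM, with the crossed library at 4491 CPM. Their part was not tested.

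The interaction in MSM had 12 members with a higher and 3 with a lower cisplatin effect in the TDLN, where 31.1% of all genes were called higher and 9.64% lower (median 0.48, all genes 0.58). Leaving out the crossed libraries gave 20 higher and 9 lower, where 43% and 22.1% of all genes were called. Parp14 (6.72 ± 0.68), Herc6 (2.97 ± 0.32), Slfn5 (2.51 ± 0.29) and Cmpk2 (2.35 ± 0.61) were on the higher side, with adjusted p of 4.63e-05, 7.22e-05, 0.000104 and 0.0114. Ifit2 (-1.94 ± 0.52, adjusted p = 0.0128), Usp18 (-0.86 ± 0.16, adjusted p = 0.00180) and Oasl1 (-1.93 ± 0.63, adjusted p = 0.0321) were on the lower side. Oasl1 lost the call on leaving out any library but MSM LN PBS 1, 2 or 3 or the crossed MSM TDLN CIS 1 (0.0502 to 0.0687). The marker differences of MSM LN CIS and MSM TDLN PBS given above move with this interaction, and their part was not tested.

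MSM and SSM were compared within each condition in 1 fit of all 24 macrophage libraries. In the LN after cisplatin 26 members were lower in MSM and 0 higher, where 29% of all genes were called lower and 20.7% higher (median -1.14). In the TDLN after PBS 28 were lower and 0 higher, where 26.4% of all genes were called lower and 14.4% higher (median -1.72). On this scale Oas3 averaged 16.6 ± 1.26 CPM (SD, n = 3) in MSM LN CIS and 154.6 ± 3.82 CPM in SSM LN CIS (-3.22 ± 0.47, adjusted p = 1.94e-05). Slfn5 (-2.91 ± 0.22), Oas1a (-2.75 ± 0.29), Eif2ak2 (-2.65 ± 0.17) and Cmpk2 (-2.54 ± 0.46) were lower too, with adjusted p of 3.77e-09, 4.31e-07, 8.46e-10 and 0.000201. In the TDLN after PBS, Mx1 was at least 124-fold and Mx2 at least 22.3-fold lower in MSM. Parp14 (-7.84 ± 0.45, adjusted p = 1.88e-10), Ifi44 (-3.07 ± 0.61, adjusted p = 0.000552) and Rsad2 (-2.56 ± 0.73, adjusted p = 0.00909) were lower. Without the crossed libraries the counts were 3 higher and 33 lower in the LN after cisplatin, where 33.1% and 39.3% of all genes were called, and 1 and 33 in the TDLN after PBS, where 28.1% and 39% were. The marker differences of MSM LN CIS, MSM TDLN PBS and SSM TDLN PBS given above move with these comparisons, and their part was not tested.

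In LN PBS and in TDLN CIS, each of which has a crossed library on both sides, edgeR called 0 members and 0% of all genes in either direction. In both, 0 members had an unadjusted p under 0.05, and DESeq2 called 0 members. Without the crossed libraries, MSM was higher for 17 members and lower for 8 in LN PBS, where 28.7% and 33.3% of all genes were called, and higher for 6 and lower for 26 in TDLN CIS, where 33.7% and 29.6% were.

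Migratory dendritic cells showed smaller changes. Of the 36 members 33 were tested there, since Ifit3b, Isg20 and Ifi44 had too few counts. In the TDLN 10 members rose and 4 fell with cisplatin, where 14.1% of all genes were called higher and 13.2% lower (median 0.22), and all 5 oligoadenylate synthetases were among those that rose (median 1.08). Isg15 was at 8.33, 6.54 and 6.82 CPM after PBS and at 18.2, 22.7 and 23.1 CPM after cisplatin (1.57 ± 0.17, adjusted p = 6.16e-07). Oasl1 was at 6.999, 6.541 and 5.97 CPM and at 19.9, 14.1 and 16.9 CPM (1.39 ± 0.17, adjusted p = 2.03e-06). Oasl2 was at 6.38, 5.74 and 6.30 CPM and at 14.5, 16.5 and 14.8 CPM (1.31 ± 0.16, adjusted p = 3.16e-06). In each of them the groups stood apart by more than the spread of the libraries. Ifi27l2a (0.94 ± 0.23, adjusted p = 0.00364) and Oas3 (0.70 ± 0.18, adjusted p = 0.00488) rose too. Marker sums moved with mDC comparisons here and below. B cell markers were 281 to 309 CPM in TDLN PBS and 444 to 460.5 CPM in TDLN CIS. In the LN they were 160 to 175 CPM after PBS and 337 to 372 CPM after cisplatin. Plasmacytoid dendritic cell markers were 107 to 111.5, 126 to 138, 108 to 122 and 153 to 160 CPM in the same order. Migratory dendritic cell markers were 34779 to 36182.5, 30207 to 32552, 36366 to 37420 and 32677 to 36016 CPM. Their part was not tested.

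Mx1, one of the most abundant members of mDC, moved the other way, as did 3 more. Mx1 was at 211, 199.8 and 204 CPM after PBS and at 174, 155.5 and 159.7 CPM after cisplatin (-0.33 ± 0.06, adjusted p = 0.000196). Herc6 fell by 0.37 ± 0.09 (adjusted p = 0.00347). Samd9l fell by 0.37 ± 0.11 (adjusted p = 0.0129) and Ifih1, the RNA helicase MDA5, by 0.32 ± 0.11 (adjusted p = 0.0284). Samd9l was lost without mDC TDLN CIS replicate 2 (0.0824), and Ifih1 without CIS replicate 1 or PBS replicate 3 (0.108 to 0.185). The PBS libraries of this comparison were the deep ones, and with them thinned to 3000000 counts 7 members rose and 3 fell, where 10.3% and 9.82% of all genes were called, and Oas3 and Ifih1 lost their calls.

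In the LN 3 members of mDC were called with cisplatin, 1 higher and 2 lower, where 6.15% of all genes were called higher and 4.82% lower (median 0.08). These counts are near or below the shares of all genes. Mx1 fell from 173, 181.5 and 173.9 CPM to 120.8, 119 and 126.8 CPM (-0.53 ± 0.07, adjusted p = 8.42e-06). Parp14 fell from 39.5, 44.4 and 37.3 CPM to 29.2, 16.8 and 19.8 CPM (-0.85 ± 0.16, adjusted p = 0.00101). Oasl2 rose by 0.63 ± 0.19 (adjusted p = 0.0321), a call lost without any PBS library or CIS replicate 2 or 3 (0.0565 to 0.112), or with no filter on low counts. The interaction had 6 members with a higher effect in the TDLN and 0 with a lower one, where 8.43% and 7.17% of all genes were called. They included Isg15 (1.44 ± 0.28, adjusted p = 0.00126), Oasl1 (1.39 ± 0.25, adjusted p = 0.000536), Zbp1 (1.12 ± 0.21, adjusted p = 0.00094) and Slfn5 (0.62 ± 0.16, adjusted p = 0.0117). Parp14 (0.75 ± 0.20, adjusted p = 0.0131) was lost without mDC LN CIS replicate 2 (0.0544). With no filter on low counts 10 members were called, and Parp14 and Slfn5 were not.

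The nodes differed in both directions in mDC. After PBS 7 members were higher and 8 lower in the TDLN, where 14.8% of all genes were called higher and 14.3% lower (median -0.11). With the deep libraries thinned 5 were higher and 5 lower, where 11.4% and 11.1% of all genes were called. The RNA helicases Ddx58 (RIG-I; 0.63 ± 0.13, adjusted p = 0.00107) and Ifih1 (0.50 ± 0.12, adjusted p = 0.00236) were higher, as were Samd9l (0.46 ± 0.12, adjusted p = 0.00398) and Dtx3l (0.46 ± 0.08, adjusted p = 9.39e-05). Parp14 was higher by 0.35 ± 0.13 (adjusted p = 0.0420). Oasl1 (-1.35 ± 0.18, adjusted p = 6.69e-06), Oasl2 (-0.87 ± 0.19, adjusted p = 0.00119) and Isg15 (-0.71 ± 0.21, adjusted p = 0.0119) were lower, and so were Ifit3 (-0.98 ± 0.37, adjusted p = 0.0493) and Ifit2 (-0.73 ± 0.25, adjusted p = 0.0312). The calls of Parp14, Ifit3 and Ifit2 were lost on leaving out mDC TDLN PBS replicate 2 or 3 or LN PBS replicate 3, Parp14 and Ifit2 also without LN PBS replicate 1 and Ifit3 and Ifit2 also without LN PBS replicate 2. Their adjusted p were then 0.055 to 0.359, and Isg15 was lost without mDC LN PBS replicate 1 (0.183). These 4 calls were also lost with the deep libraries thinned, and with no filter on low counts Ifit3, Ifit2, Isg15 and Oasl2 were.

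After cisplatin 7 members were higher and 1 lower in mDC of the TDLN, where 7.57% of all genes were called higher and 7.21% lower. All 3 genes of the ADP-ribosylation complex were higher, among them Parp14 (1.10 ± 0.15, adjusted p = 1.27e-05) and Dtx3l at 117.8, 108.5 and 122 CPM against 72.1, 72.3 and 70.4 CPM (0.70 ± 0.08, adjusted p = 9.86e-07). Parp9 and Dtx3l overlap on opposite strands, and the counting strand is not given, so their reads may be shared. Slfn5 (0.70 ± 0.12, adjusted p = 0.000175), Mx1 (0.42 ± 0.07, adjusted p = 8.36e-05) and Isg15 (0.73 ± 0.19, adjusted p = 0.0119) were higher, the last without a call when mDC LN CIS replicate 1 or TDLN CIS replicate 3 was left out (0.0535 to 0.0694). Usp18 was lower by 0.22 on the log2 scale with an SE of 0.06 (adjusted p = 0.0173), which was lost without mDC LN CIS replicate 2 or TDLN CIS replicate 2 or 3 (0.0609 to 0.0972), or with no filter on low counts. The count was 4 without mDC TDLN CIS replicate 3.

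In resident dendritic cells of the TDLN 4 members rose and 0 fell with cisplatin, where 0.399% of all genes were called higher and 0.613% lower. All 36 members were positive in sign (median 0.42). Oas2 stood at 9.31, 8.32 and 13.8 CPM after PBS and at 24.5, 21.0 and 24.7 CPM after cisplatin (1.15 ± 0.19, adjusted p = 0.00405). Oasl2 stood at 31.9, 22.3 and 23.9 CPM and at 46.3, 49.1 and 44.3 CPM (0.82 ± 0.14, adjusted p = 0.00512). Oas3 rose by 0.91 ± 0.18 (adjusted p = 0.0178) and Cmpk2 by 0.87 ± 0.17 (adjusted p = 0.0113). Only Oas2 kept its call through every left-out library. Oasl2 was lost without PBS replicate 3 (0.0526), Oas3 without any PBS library or CIS replicate 1 (0.065 to 0.105), and Cmpk2 without CIS replicate 3 or PBS replicate 1 or 3 (0.0515 to 0.0876).

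The library rDC TDLN CIS replicate 2 stood apart. Samd9l was at 161, 65.2 and 148 CPM in the 3 cisplatin libraries, Bst2 at 309, 519.5 and 309 CPM, and Ifi27l2a at 73.8, 149.9 and 73.3 CPM, values that were picked after they were seen. Without this library 13 members were called, and without rDC TDLN PBS replicate 3 only 1 was. Plasmacytoid dendritic cell markers were 3663 to 4360 CPM in rDC TDLN CIS, 3835 to 4052 in TDLN PBS, 2368 to 2494 in LN CIS and 2180 to 2383 CPM in LN PBS. Their part was not tested.

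In the LN 3 members of rDC were called with cisplatin, 2 higher and 1 lower, where 10.7% of all genes were called higher and 7.17% lower (median -0.02). These counts are below the shares of all genes. Ifi35, an interferon-induced leucine zipper protein, fell from 147, 143 and 146 CPM to 110.1, 118 and 109 CPM (-0.37 ± 0.10, adjusted p = 0.0119). Ifi44 rose by 0.65 ± 0.17 (adjusted p = 0.0117) and Ifit2 by 0.49 ± 0.16 (adjusted p = 0.0438). Ifi44 was lost without rDC LN CIS replicate 1 or LN PBS replicate 2 or 3 (0.0502 to 0.0821), and Ifit2 without any library of the comparison (0.0502 to 0.188). The count was 1 without LN CIS replicate 1 or LN PBS replicate 2 or 3, 5 with the DESeq2 test and 16 with no filter on low counts, and Ifi44 and Ifit2 lost their calls under both of the last. Ifit2 also lost its call with the deep libraries thinned. Across the nodes the effect was higher in the TDLN for 4 members and lower for 0, where 2.62% and 2.70% of all genes were called (median 0.54). Oas2 (1.28 ± 0.26, adjusted p = 0.0054) and Usp18 (0.60 ± 0.13, adjusted p = 0.00752) kept the call through every left-out library. Oasl2 (0.81 ± 0.19, adjusted p = 0.0183) and Ifi35 (0.52 ± 0.14, adjusted p = 0.0349) did not. Both were lost without rDC LN PBS replicate 3 or TDLN PBS replicate 3, when the count was 2, and Ifi35 also without LN CIS replicate 3, LN PBS replicate 1 or TDLN PBS replicate 1 (0.0552 to 0.0878). The count was 17 without rDC TDLN CIS replicate 2, 7 with the DESeq2 test and 20 with no filter on low counts.

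After PBS rDC of the TDLN had 1 member higher and 14 lower than those of the LN, where 14.9% of all genes were called higher and 12.1% lower (median -0.37). Bst2, at 354, 369 and 393 CPM in the TDLN and 234.5, 208 and 243 CPM in the LN, was the higher one (0.70 ± 0.15, adjusted p = 0.00246). Ifit3 was at 16.8, 21.6 and 16.7 CPM against 35.3, 36.8 and 33.6 CPM (-0.95 ± 0.15, adjusted p = 0.000264). Rtp4 (-1.02 ± 0.19, adjusted p = 0.00101), Oas2 (-0.83 ± 0.18, adjusted p = 0.00319) and Samd9l (-0.77 ± 0.20, adjusted p = 0.0111) were lower. Isg15 was lower by 0.75 with an SE of 0.24 on the log2 scale (adjusted p = 0.0306), lost without rDC LN PBS replicate 1 or 3 or TDLN PBS replicate 1 or 2 (0.0685 to 0.161). The LN PBS libraries are deep ones, and with them thinned 1 member was higher and 14 lower, where 11.6% and 10.1% of all genes were called, and Isg15 lost its call. With no filter on low counts 28 members were called. After cisplatin 3 members were higher and 1 lower, near or below the shares of all genes, 7.83% and 6.97%. Bst2 (0.79 ± 0.15, adjusted p = 0.00183), Usp18 (0.48 ± 0.09, adjusted p = 0.00173) and Stat2 (0.40 ± 0.09, adjusted p = 0.00433) were higher and Ifit3 (-0.85 ± 0.15, adjusted p = 0.00114) lower. The count was 9 without rDC TDLN CIS replicate 2. Plasmacytoid dendritic cells are known to express Bst2, and their markers were higher in both TDLN groups, as given above, which was not tested further. Other sums also moved from rDC LN PBS to rDC TDLN PBS. B cell markers were 3175 to 3662 and 1883 to 1972 CPM, and T cell markers 325.5 to 380 and 874.5 to 919 CPM. Sinus macrophage markers were 3084 to 3210 and 2096 to 2155 CPM. The part of these sums was not tested.

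The 2 dendritic cell types differed in which members were high. In every condition Mx1, Usp18, Herc6, Ifih1, Rsad2 and Dtx3l were higher in mDC and 17 members were lower, on CPM scaled over the 24 dendritic cell libraries. Among the 17 are Ifit3b, Isg20 and Ifi44, which had too few counts to be tested in mDC alone. They passed the filter of this fit through rDC, so a lower call in mDC was favoured in advance for them. The counts were 6 higher and 24 lower in LN PBS, 7 and 22 in LN CIS, 9 and 18 in TDLN PBS and 7 and 22 in TDLN CIS. Of all genes 31.5% and 35%, 26.2% and 28.7%, 37% and 35.4%, and 27.5% and 28.6% were called higher and lower in the same order. In each condition members were thus called higher in mDC less often than all genes, and lower more often. The shares of all genes called in every condition are not given, so the 6 and 17 members were not set against them. The medians lay between -0.95 and -0.51. Usp18 averaged 277.8 ± 11.7 CPM (SD, n = 3) in mDC LN PBS and 74.4 ± 0.443 CPM in rDC LN PBS (1.90 ± 0.07, adjusted p = 4.22e-20), and its difference ranged from 1.53 to 2.24 over the 4 conditions. Mx1 averaged 243.7 ± 5.93 CPM in mDC TDLN PBS and 12.7 ± 1.41 CPM in rDC TDLN PBS (4.25 ± 0.13, adjusted p = 6.53e-22). Its difference was 3.22 to 3.39 in the other 3 conditions.

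Bst2 was the clearest gene of the opposite kind, at 34.5 ± 2.01 CPM in mDC TDLN PBS and 330.9 ± 19.0 CPM in rDC TDLN PBS (-3.26 ± 0.13, adjusted p = 9.4e-19), and the difference was -2.17 in LN PBS, -2.32 in LN CIS and -3.20 in TDLN CIS. Ifi27l2a differed by -3.29 to -2.30 over the 4 conditions. Ifi44 was at 0.417 CPM in mDC and 11.5 CPM in rDC of the TDLN after PBS (-4.77 ± 0.31, adjusted p = 4.69e-14), but it passed the filter only through rDC, so its direction was favoured in advance. Slfn8 differed by -2.66 in LN PBS, but 26.8% of its 31-base words are shared with other genes. Members of 1 role thus went both ways: of the sensors Ifih1 was higher in mDC in all conditions, while Dhx58, the regulatory helicase LGP2, was lower in all 4, at -1.45 to -1.04 on the log2 scale, a gene picked after its value was seen. In these same libraries plasmacytoid dendritic cell markers were 107 to 160 CPM in mDC and 2180 to 4360 CPM in rDC, and B cell markers 1706 to 3662 CPM in rDC. Their part was not tested.

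**Figure D5:**
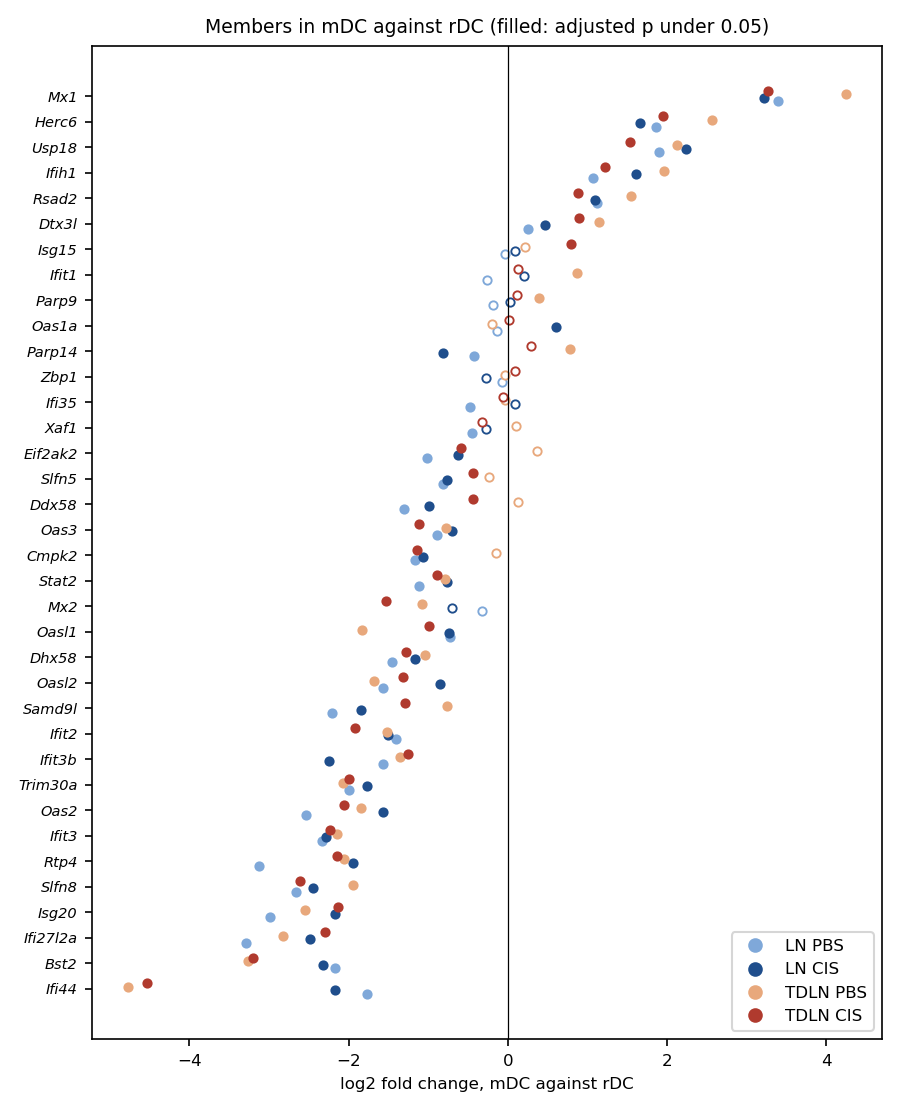
Log2 fold change of mDC against rDC for each member in the 4 conditions, from the fit of 24 dendritic cell libraries, with filled points for an adjusted p under 0.05. Mx1, Usp18, Herc6, Ifih1, Rsad2 and Dtx3l lie above 0 in every condition and Bst2 lies between -3.26 and -2.17.

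Genes around the module were read from lists of the same pathway. Interferon genes themselves had few counts. Of 21 ligand genes 11 had any count in the macrophages and 21 in the dendritic cells, where the highest count of a type I interferon gene in a library was 12. Ifna5, an interferon-alpha, had 18, 19 and 26 counts in the MSM TDLN PBS libraries, 10, 6 and 2 in SSM TDLN PBS and at most 2 in any other macrophage library. Ifnb1 had 4 counts in MSM TDLN CIS replicate 1, 4 and 2 in SSM TDLN CIS replicates 1 and 2, 1 in SSM LN CIS replicate 3 and 0 in the other macrophage libraries. Ifng, the type II interferon, had 12, 13 and 14 counts in rDC LN CIS.

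Irf7, the factor that amplifies interferon-alpha transcription and is itself interferon-induced, followed the members in SSM. It averaged 980 ± 68.8 CPM (SD, n = 3) in SSM TDLN PBS and 154 ± 65.5 CPM in SSM TDLN CIS (-2.68 ± 0.38, adjusted p = 0.00168), and rose from 341 ± 168 to 882 ± 30.8 CPM in the LN (1.35 ± 0.37, adjusted p = 0.0360). Its interaction was -4.03 ± 0.53 (adjusted p = 0.00101). Of 41 other interferon-stimulated genes 20 fell and 3 rose in SSM of the TDLN with cisplatin, where 9.95% of all genes were called lower and 13% higher (27 and 11 without the crossed libraries, where 36.5% and 34.6% were), led by Ifi205 (-3.08 ± 0.20, adjusted p = 3.11e-05) and Phf11a (-3.02 ± 0.16, adjusted p = 2.49e-05). In the LN 9 of them rose and 1 fell, where 5.85% of all genes were called higher and 7.42% lower (27 and 8 without the crossed libraries, where 30.1% and 29.9% were), led by the membrane protein Ifitm3, which averaged 225 ± 157 CPM after PBS and 1354 ± 11.97 CPM after cisplatin (2.56 ± 0.38, adjusted p = 0.00337). Of 11 receptor and signalling genes 3 fell and 0 rose in SSM of the TDLN, among them Irf9 (-0.68 ± 0.16, adjusted p = 0.0135), which works in a transcription complex with Stat2, and 4 rose and 1 fell in the LN. Of 17 genes of nucleic acid sensing upstream of interferon 1 rose and 3 fell in the TDLN and 3 rose and 0 fell in the LN. Of 13 brakes on the response 2 rose and 1 fell in the TDLN, near the shares of all genes there, and 3 rose and 0 fell in the LN. Without the crossed libraries the brakes had 6 higher and 5 lower in the TDLN and 7 and 2 in the LN, the sensing genes 7 and 6, and 7 and 4, and the receptor and signalling genes 3 and 7, and 5 and 3.

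In MSM 12 of the 41 other interferon-stimulated genes were higher and 9 lower in the TDLN, where 25.6% and 11.5% of all genes were called, and 9 and 11 in the LN, where 16.6% and 26.8% were. Without the crossed libraries the counts were 14 and 22 in the TDLN, where 41.6% and 27.4% of all genes were called. They were 16 and 20 in the LN, where 33.4% and 40.7% were. Ticam1, the adaptor TRIF, had no count in MSM LN CIS or MSM TDLN PBS and averaged 17.6 ± 0.951 CPM in MSM LN PBS. In mDC of the TDLN 14 of 40 rose and 1 fell with cisplatin, where 14.1% of all genes were called higher and 13.2% lower, with 7 of 16 sensing genes higher and 1 lower, 6 of 13 brakes higher and 1 lower, and 3 of 11 receptor and signalling genes higher and 1 lower. With the deep libraries thinned the counts were 10 and 1, 6 and 1, 5 and 0, and 2 and 1 in the same order, where 10.3% and 9.82% of all genes were called. Irf7 averaged 14.1 ± 1.62 CPM after PBS and 38.6 ± 1.56 CPM after cisplatin there (1.58 ± 0.13, adjusted p = 4.28e-09). In rDC of the TDLN 2 of 41 other interferon-stimulated genes rose, where 0.399% of all genes were called higher, Ifi213 (0.80 ± 0.17, adjusted p = 0.0226) and Irgm1 (0.48 ± 0.08, adjusted p = 0.00451), and edgeR called 0 genes of receptors, sensing or brakes. In rDC of the LN the chemokine Ccl5 rose (1.59 ± 0.16, adjusted p = 7.13e-06) and Cxcl9 fell (-1.13 ± 0.12, adjusted p = 8.75e-06), while 4 of the 41 genes rose and 8 fell, where 10.7% of all genes were called higher and 7.17% lower.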

How the data were processed

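Polyadenylated RNA of sorted lymph node myeloid cells was sequenced after TruSeq Stranded preparation, per the labels. Per the submitters' processing notes, STAR, GRCm38, RSEM 1.3.0 and DESeq2 1.38.3 were used; the counting strand is not given in the sources used here. The authors deposited expected counts from RSEM, which hold whole numbers. They also deposited TPM values of the dendritic cells, and of the macrophages with decimals dropped, which the authors' columns hold as a score on the same scale. Dendritic cell columns named for wild type were read as LN.

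Counts were kept with filterByExpr, scaled by TMM and tested with edgeR 4.0.16 (limma 3.58.1, R 4.3.3), in 1 fit of 12 libraries per cell type and 1 of 24 per pair of cell types. DESeq2 1.42.0 was an alternative. Tables and figures were made in Python 3.11.15 with matplotlib 3.10.9, numpy 2.4.6 and pandas 2.3.3. The fits were tested on simulated data. Named members pass the limit of 0.05, average at least 4 CPM and are the 5 largest per direction; other picks are marked. Members and lists were chosen with earlier results of these data known. The labels do not say whether replicates came from separate animals, so p-values measure only the spread between these samples. Replicate numbers were not treated as pairs in the main fits. Same-numbered deviations correlated over 0.1 in every pair in 1 of 24 group pairs, SSM LN CIS with SSM TDLN PBS. This rule cannot exclude pairing. Deviations in groups with a crossed library also hold the difference between cell labels, so pairing could not be judged there. The values of 1 gene of the pathway lists are not reported here.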

Additional observations from a re-analysis of the deposited data

Results flagged for a closer look

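The effect of cisplatin differed between the TDLN and the LN, by the interaction test of edgeR, for 31 members in SSM, 15 in MSM, 6 in mDC and 4 in rDC. In SSM the 31 differences were all towards a lower effect in the TDLN, where 8.21% of all genes were called lower and 13.4% higher. In MSM 12 were towards a higher and 3 towards a lower one, near the shares of all genes there, 31.1% and 9.64%. The 6 of mDC were towards a higher one, where 8.43% of all genes were called higher and 7.17% lower. The 4 of rDC were towards a higher one, where 2.62% and 2.70% were. In mDC 33 members were tested.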

How the results depend on the processing

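Counts of called members moved by over 1.5 times under some settings. Without the 4 crossed libraries MSM had 24 members called with cisplatin in TDLN and 31 in LN, 29 between nodes after PBS, 32 between nodes after cisplatin and 29 for the node difference. SSM had 32 called with cisplatin in LN and 29 between nodes after PBS, and MSM against SSM had 25 in LN PBS and 32 in TDLN CIS. The shares of all genes called rose in these fits too. With cisplatin in MSM of the TDLN they went from 25.6% higher and 11.5% lower to 41.6% and 27.4%. In SSM of the LN they went from 5.85% and 7.42% to 30.1% and 29.9%. The DESeq2 test gave 18 members for cisplatin in SSM of the LN, 5 in rDC of the LN and 7 for the node difference in rDC. Without a filter on low counts the values were 10 for the node difference in mDC, 16 for cisplatin in rDC of the LN, 28 for TDLN against LN in rDC after PBS and 20 for the node difference in rDC; that scaling shifts mDC TDLN PBS by 0.23 and rDC LN PBS by 0.22 on the log2 scale. Leaving out 1 library gave 9 to 18 for cisplatin in MSM of the TDLN, 10 to 19 in MSM of the LN, 5 to 21 in SSM of the LN, 6 to 20 for TDLN against LN in SSM after PBS, 4 to 10 in mDC after cisplatin and 4 to 9 in rDC after cisplatin. It gave 1 to 13 for cisplatin in rDC of the TDLN, 1 to 3 in rDC of the LN, 2 to 3 in mDC of the LN and 2 to 17 for the node difference in rDC. Shares of all genes are not given for the DESeq2 test, the fits without a filter or those that left out 1 library. Their counts were therefore not set against all genes. DESeq2 size factors, thinning and the replicate block moved no count by that much; with the replicate block, cisplatin in SSM gave 27 members in the TDLN and 8 in the LN. The replicate block ended 7 of 166 named calls: Xaf1 with cisplatin in MSM of the TDLN, Ifit3 with cisplatin in MSM of the LN, Mx2 in SSM after cisplatin by node, Oasl2 with cisplatin in mDC of the LN, Ifit3 in mDC after PBS by node, Ifit2 with cisplatin in rDC of the LN and Ifi35 for the node difference in rDC. Of the named calls 8 of 94 were lost with the deep libraries thinned, 11 of 166 with no filter on low counts, 3 of 163 with the DESeq2 test, 1 of 166 with DESeq2 size factors and 0 of 72 without the crossed libraries. No named call turned its direction under these settings or on leaving out 1 library. The cause of these moves was not tested.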
